A study of Mus musculus with 20 samples.

Results

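MIN6 is a mouse beta cell line that makes and secretes insulin and its partner peptide amylin, the product of Iapp. The data described here are the 6 arrays taken after 2 h of exposure to human amylin, out of 20 arrays in the series. Of these, 3 came from MIN6 cells kept at 22.7 mM glucose and given amylin at 1, 10 or 20 µM. The other 3 came from MIN6 cells kept at 5.5 mM glucose and given the same doses. They were chosen by their labelled time, glucose level and dose, and each array at 22.7 mM was set against the array of the same dose at 5.5 mM. The rest of the series holds 6 arrays at 12 h, 6 at 24 h and 1 array without amylin at each glucose level. Total RNA was measured on an Affymetrix mouse chip, and values are log2 signals, so that a difference of 1 is a doubling. All groups at 2 h carry amylin, so each comparison below is of glucose in cells that also received the peptide.

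Each condition has a single array. The 3 dose pairs therefore served as the repeats of the glucose comparison, and the p-values measure only the spread between pairs. The labels do not say whether the arrays came from separate cultures.

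In beta cells glucose is taken up and metabolised, the resulting ATP closes potassium channels, and calcium entry triggers release of insulin granules. Glucose also acts on transcription through ChREBP, a factor that binds carbohydrate response elements in promoters such as that of Txnip, whose product inhibits thioredoxin and slows glucose uptake. A beta cell makes large amounts of secreted protein, and its endoplasmic reticulum (ER) depends on chaperones such as BiP, the product of Hspa5, that are induced through ER stress response elements. The integrated stress response works through Atf4, which binds amino acid response elements and turns on genes for amino acid uptake and synthesis. Human amylin, unlike the mouse peptide, can aggregate into amyloid.

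Promoter sequences are printed for 7 genes of these 3 routes, each described below whether or not it was called. They are RefSeq promoters of GRCm38.p6, written 5′ to 3′ on the gene's strand, and capitals mark the element. The first is Txnip, with the carbohydrate response element (CACGNG, then 5 bases, then CACGNG). The stretch printed is chr3:96557842-96557918 on the + strand, and the element lies at −85 to −69 from the gene's start.
Txnip: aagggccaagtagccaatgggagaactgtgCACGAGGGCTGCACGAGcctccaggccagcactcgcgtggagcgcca
Nupr1, Chac1 and Asns, genes of the integrated stress response, follow with the amino acid response element TGATGNAA. The stretches printed are chr7:126625543-126625610 (− strand), chr2:119351019-119351086 (+ strand) and chr6:7693210-7693262 (− strand). In Nupr1 and Chac1 the element reads on the opposite strand.
Nupr1: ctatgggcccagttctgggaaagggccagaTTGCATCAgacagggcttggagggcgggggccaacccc
Chac1: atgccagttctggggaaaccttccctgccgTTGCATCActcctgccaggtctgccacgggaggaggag
Asns: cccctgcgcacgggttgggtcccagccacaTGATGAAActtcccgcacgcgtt
Hspa5, Pdia6 and Dnajc3, genes of ER chaperones, carry the ER stress response element (CCAAT, then 9 bases, then CCACG). The stretches printed are chr2:34771995-34772073, chr12:17266461-17266539 and chr14:118937797-118937875, all on the + strand.
Hspa5: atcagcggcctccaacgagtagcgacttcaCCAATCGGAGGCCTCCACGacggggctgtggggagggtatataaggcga
Pdia6: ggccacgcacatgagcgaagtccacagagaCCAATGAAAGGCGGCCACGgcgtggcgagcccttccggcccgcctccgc
Dnajc3: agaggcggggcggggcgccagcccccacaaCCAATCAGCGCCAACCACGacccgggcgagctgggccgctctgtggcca

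The elements were searched on both strands of windows of 250 bases before to 50 after each gene's start. The carbohydrate response element was present in 0.0555% of 27025 genes with a promoter. The amino acid response element was present in 4.51% of them, and in 5 of the 21 integrated stress response genes with a promoter. The ER stress response element was present in 0.137% of them, and in 8 of the 19 ER chaperone genes with a promoter. The 3 elements do not overlap in the sequences shown, and a match is a description of the letters only.

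The cells carried the defining marks of beta cells. All 7 beta cell markers on the chip passed the filter on low signal, and their summed linear signal was 57032 to 60176 at 22.7 mM glucose and 58378 to 61059 at 5.5 mM. Ins2 signalled 14.50, 14.66 and 14.67 at 22.7 mM (1, 10 and 20 µM amylin, the order kept throughout), against 14.64, 14.72 and 14.66 at 5.5 mM. Of the markers of other cells, 2 of 5 hormones of other islet cells, 1 of 9 acinar, 3 of 7 duct, 4 of 11 fibroblast and 1 of 10 immune and endothelial genes passed the filter. Some were bright: the glucagon gene Gcg was at 10.97 to 11.41, and the duct genes Krt8 and Krt7 at 10.29 to 10.73 and 10.49 to 10.94. The beta cell marker Pdx1 was at 10.74 to 11.09. The summed duct signal was 3323 to 3813 at 22.7 mM and 3218 to 3347 at 5.5 mM. The sums of each of these lists overlapped between glucose levels. Of their genes, only the beta cell marker Abcc8 was called in the fits below. It was higher at 22.7 mM in the fit with scan day as a block, with means of 11.95 at 22.7 mM and 11.70 at 5.5 mM.

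The actin control, used as a measure of RNA quality, moved with glucose. The actin control probe sets at the 3′ end exceeded those at the 5′ end by 1.90, 2.60 and 1.61 log2 units at 22.7 mM glucose, against 1.07, 1.25 and 1.17 at 5.5 mM. All 3 arrays at 22.7 mM lay above all 3 at 5.5 mM. The mean was 2.04 ± 0.51 at 22.7 mM and 1.16 ± 0.087 at 5.5 mM (SD, n = 3 each), a difference of 0.88, largest in the 10 µM pair at 1.35 and smallest in the 20 µM pair at 0.44. An exact two-sided sign-flip permutation test over the pairs gave p = 0.25, the smallest that 3 pairs allow. The Gapdh controls differed the same way, with means of 1.46 at 22.7 mM and 0.90 at 5.5 mM, and those of pyruvate carboxylase had means of 2.91 and 2.53. The transferrin receptor controls did not, with means of 1.84 at 22.7 mM and 1.99 at 5.5 mM and differences of −0.38, 0.05 and −0.10. The actin difference was 1.01 in the untreated pair. In the later pairs it was positive in 6 of 6, and that of Gapdh in 5 of 6. A larger gap is used in array work as a sign of RNA that is less complete at its 5′ end. Its part in the gene differences was not tested, and glucose and this signal cannot be told apart by design. Scan day was mixed with both in part. The 22.7 mM arrays of the 1 µM, 10 µM and untreated pairs were scanned on day 3, and their 5.5 mM partners on day 2 or 4. Only the 20 µM pair was scanned on 1 day, and the part of scan day in this signal was not tested.

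**Figure D1:**
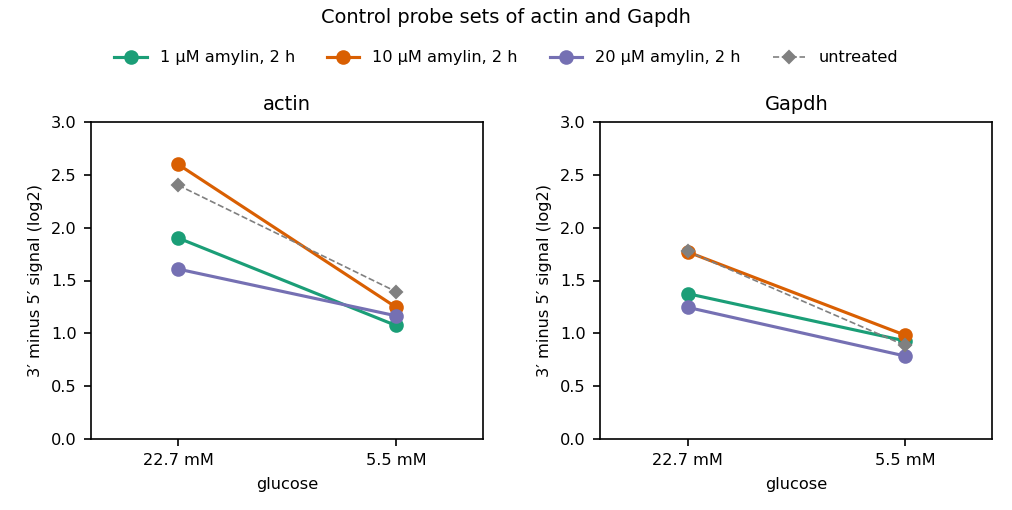
The 3′ minus 5′ signal (log2 units, y axis) of the actin and Gapdh control probe sets at 22.7 and 5.5 mM glucose (x axis). Each line joins the 2 arrays of one amylin dose at 2 h or the untreated pair (dashed). Actin at 22.7 mM lay at 1.61 to 2.60 after amylin, above every array at 5.5 mM.

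The 2 arrays labelled 1 µM, 2 h did not follow their glucose labels for a group of glucose-responsive genes. In the 14 arrays outside 2 h, 72 genes had glucose levels that did not overlap, 49 higher and 23 lower at 22.7 mM. Among the arrays labelled 22.7 mM at 2 h, 41, 62 and 48 of the 72 lay on the side of their own glucose level at 1, 10 and 20 µM. Among those labelled 5.5 mM, 31, 57 and 63 did. Txnip was at 7.34 in the array labelled 22.7 mM and 1 µM, and at 8.76 in the array labelled 5.5 mM and 1 µM. The 14 other arrays held Txnip at 8.20 to 9.37 at 22.7 mM and 7.20 to 7.87 at 5.5 mM, so both arrays lay in the range of the other glucose level. Nupr1, a stress-induced chromatin protein, was at 9.0 and 7.40 in these 2 arrays. Its ranges in the 14 arrays were 7.13 to 7.88 at 22.7 mM and 8.31 to 8.85 at 5.5 mM. Other genes ran with the labels: Map1b and Kif5b below were lower at 22.7 mM at 1 µM too, and the actin control was higher there, as at the other doses. By Pearson r across genes, as a description, the array labelled 5.5 mM and 1 µM was closest to that labelled 22.7 mM and 20 µM (0.9863). It was nearly as close to that labelled 5.5 mM and 20 µM (0.9855), and these arrays were scanned on the same day. The array labelled 22.7 mM and 1 µM was closest to one of its own glucose level, that of 20 µM (0.9810). The array labelled 22.7 mM and 10 µM was closest to that labelled 5.5 mM and 1 µM (0.9820). Because of the genes that went against their labels, values without the 1 µM pair are given as well, a choice made after these values were seen.

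Across all 3 pairs, no gene passed the test over the 18 treated arrays. With limma and Benjamini-Hochberg adjustment over 7436 genes at 0.05, 0 genes were called (0%), and the smallest adjusted p was 0.0881, for Rgs2. At an unadjusted p under 0.05 there were 620 genes (8.34%), 304 higher (4.09%) and 316 lower (4.25%) at 22.7 mM, where 371.8 would be expected of uniform p-values. Of the 18 arrays, 2 at later times stood apart, with no scanner description, medians of 7.25 and 7.28 against 7.04 to 7.15, and mean correlations with the others of 0.941 and 0.920 against 0.969 to 0.978. Without them, in the 16-array fit, 61 genes were called (0.82%): 4 were higher at 22.7 mM (0.0538%) and 57 were lower (0.767%). The 6 arrays at 2 h fitted alone called 34, of which 32 were among the 61. With scan day as a block, over the 16 arrays that have one, 141 genes were called (1.9%), 50 higher and 91 lower, and 39 of them were among the 61. This scan day fit gives both 1 µM arrays a weight of 0, because no other pair ties their scan days together. It gives weights of 0.4 to the 10 µM arrays, 0.6 to the 20 µM arrays and 0.2 to 4 arrays at 24 h. It is therefore not a value over 3 pairs, and 123 of its calls were among the 203 described next.

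The count of called genes changed when a pair was left out or the actin signal was added. The 16-array fit called 203 genes without the 1 µM pair (2.73%), 74 of them higher (0.995%) and 129 lower (1.73%) at 22.7 mM. It called 0 without the 10 µM pair and 2 without the 20 µM pair. Over the 18 arrays, leaving out any 1 pair called 0 (663 genes had an unadjusted p under 0.05 without the 1 µM pair). Of the 61, 53 were among the 203. With the actin signal as a covariate the 16-array fit called 0 genes over the 3 pairs (196 had an unadjusted p under 0.05). It called 5 when the 1 µM pair was left out. All 61 had the same sign in the 3 pairs, as did 20.3% (higher) and 15.2% (lower) of all genes, and the groups did not overlap in 58, against 9.72% (higher) and 8.46% (lower) of all genes. The 61 were called on these same 3 pairs, so both counts follow largely from the call and are no separate support. For the 61, the median size of the difference over the 18 arrays was 0.72 without the covariate and 0.33 with it, and 60 kept their sign. Their median standard error over the 18 arrays was 0.17 without it and 0.27 with it. The largest of the 3 differences was that of the 10 µM pair in 38 of the 61 genes, as it was in 41.8% of all genes.

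Among the genes lower at 22.7 mM glucose in all 3 pairs, those of smallest p included Kif5b, Map1b and Rgs2. Kif5b, the heavy chain of the motor kinesin-1, was at 8.78, 8.06 and 9.19 at 22.7 mM, against 9.68, 9.79 and 9.95 at 5.5 mM. Every array at 22.7 mM lay below every array at 5.5 mM. The log2 difference was −1.13 ± 0.17 (SE; adjusted p = 0.0111 with 16 arrays, 0.136 with 18), and −1.25 without the 1 µM pair, a ratio of 0.42. With the covariate as well, it was −0.56 (adjusted p = 0.532 without the 1 µM pair). The untreated arrays held 8.47 at 22.7 mM and 9.33 at 5.5 mM. All 4 other Kif5b probe sets were lower too on average, by 0.12 to 1.08.

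Map1b, a microtubule-associated protein of neurons and endocrine cells, was at 6.86, 6.56 and 6.85 at 22.7 mM, against 7.68, 7.87 and 7.68 at 5.5 mM. The groups did not overlap, and the untreated arrays lay in the same order, at 6.50 and 7.54. The difference was −0.99 ± 0.16 (adjusted p = 0.0121 with 16 arrays, 0.144 with 18). It was −0.82 at the lowest dose and −0.83 at the highest. Without the 1 µM pair it was −1.07 (adjusted p = 0.00433 with 16 arrays), and −0.55 with the covariate as well (adjusted p = 0.624). Its 2 other probe sets, both dim, differed by −0.03 and 0.01.

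Rgs2, which switches off G protein signals from receptors of the Gq class, was at 7.64, 7.39 and 7.47 at 22.7 mM, against 8.29, 8.28 and 8.57 at 5.5 mM. The groups did not overlap, and the differences were −0.65, −0.89 and −1.10 from the lowest dose to the highest. The mean was −0.88 ± 0.12 (adjusted p = 0.0106 with 16 arrays), and −0.99 without the 1 µM pair (adjusted p = 0.00142). Here the untreated pair went the other way, with 7.77 at 22.7 mM and 7.38 at 5.5 mM. A second, dimmer Rgs2 probe set differed by −0.17, 0.48 and −0.62. With the covariate and without the 1 µM pair the difference was −1.01 (adjusted p = 0.0923).

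**Figure D2:**
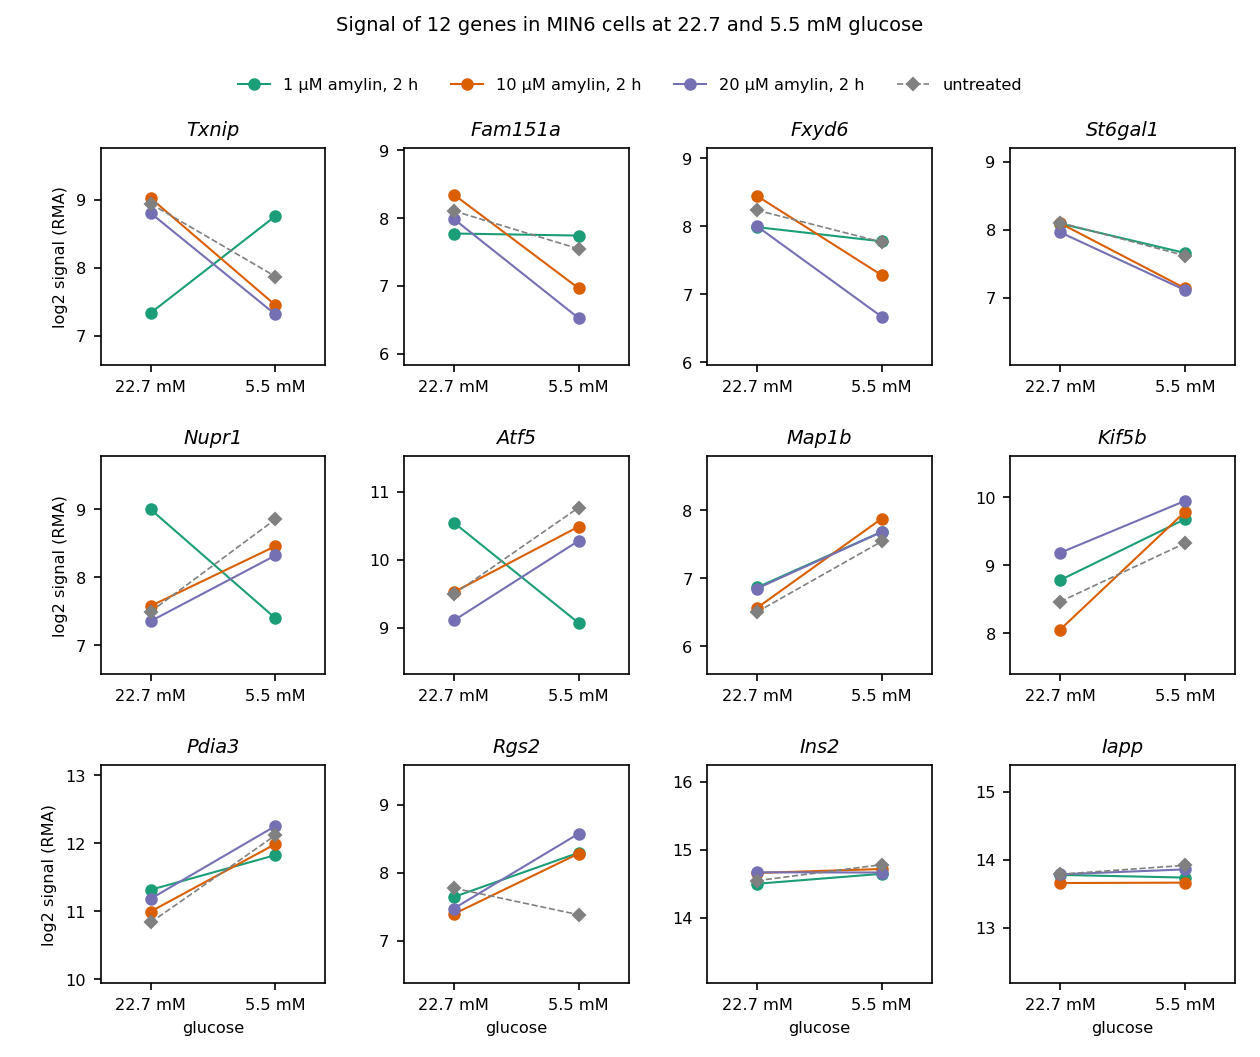
Log2 signal (y axis) of 12 genes at 22.7 and 5.5 mM glucose (x axis), one line per amylin dose at 2 h and a dashed line for the untreated pair. Txnip, Nupr1 and Atf5 cross over at 1 µM, while Map1b, Kif5b and Pdia3 slope the same way at every dose, and Ins2 and Iapp are flat.

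Ralgapa1, the catalytic subunit of a GTPase-activating complex for Ral proteins, was lower by 0.63, 1.69 and 1.08 at 1, 10 and 20 µM. Its adjusted p was 0.0173 with 16 arrays and 0.136 with 18, and its difference without the 1 µM pair was −1.38. Trim35, a tripartite motif protein, was at 6.93, 6.86 and 7.22 at 22.7 mM, against 7.79, 7.88 and 8.07 at 5.5 mM. Its 3 differences, −0.86, −1.02 and −0.85, were close to one another, and the untreated pair held 6.64 and 8.06. Hmgb3, a high mobility group DNA-binding protein, was at 8.48, 8.52 and 8.65 at 22.7 mM, against 9.13, 9.49 and 9.49 at 5.5 mM (difference −0.82 ± 0.11, adjusted p = 0.0106 with 16 arrays). These values do not overlap between glucose levels, although the untreated arrays held 9.08 at 22.7 mM and 8.89 at 5.5 mM.

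The other genes named by rank of p on this side were Galr1, Rbm18, Lin7c, Mgat2 and Taf1b. Galr1, a receptor for galanin, which restrains insulin release, differed by −0.45, −0.95 and −1.05. Glp1r, the receptor for the incretin GLP-1, was at 7.28, 6.58 and 7.25 at 22.7 mM, against 7.72, 7.32 and 8.08 at 5.5 mM (difference −0.67 ± 0.14, adjusted p = 0.0457 with 16 arrays). Both receptor genes are dim on this chip, close to the filter of 7.08. Rbm18, an RNA-binding protein, differed by −0.83, Mgat2, a Golgi enzyme of N-glycan processing, by −0.77, Lin7c, a scaffold of cell junctions, by −0.75 and Taf1b, of the RNA polymerase I machinery, by −0.72. Each passed with 16 arrays (adjusted p = 0.0173 to 0.0223) and none with 18 (0.136 to 0.158). Another probe set of Rbm18 and a dimmer one of Galr1 had the opposite sign, by 0.20 and 0.17 on average. The other probe sets of Lin7c and Mgat2 kept the sign.

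Further genes called with 16 arrays were picked for their function after their values were seen. G3bp2, an RNA-binding protein of stress granules, was at 9.89, 9.43 and 9.46 at 22.7 mM, against 10.59, 10.41 and 10.63 at 5.5 mM, a difference of −0.95 (adjusted p = 0.0106). The untreated pair of G3bp2 was reversed, with 10.31 and 9.66. Other G3bp2 probe sets, both above the signal filter, differed by −0.38 and 0.04 on average. Phip, which binds insulin receptor substrate proteins, had the largest fitted difference, −1.21 (adjusted p = 0.0463), but its values rested on the higher doses, −1.80 at 10 µM and −1.40 at 20 µM against −0.44 at 1 µM. With the covariate Phip turned to 0.19 over the 18 arrays. It was −0.75 with the covariate in the 16-array fit without the 1 µM pair (adjusted p = 0.537). Other Phip probe sets, all below the signal filter, differed by −0.24, −0.0033 and 0.14 on average. Srsf5, a splicing factor, differed by −0.81 and Becn1, which starts autophagosome formation, by −0.78. Other Becn1 probe sets differed by −0.36, 0.27 and 0.10 on average. Syt13, of the synaptotagmin family of vesicle proteins, differed by −0.71 with every dose between −0.64 and −0.84.

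Actb itself was among the 61. Its brightest gene probe set was at 12.66, 12.29 and 12.51 at 22.7 mM, against 13.01, 13.27 and 13.14 at 5.5 mM, a difference of −0.65 (adjusted p = 0.0173 with 16 arrays). Another Actb probe set ran the opposite way by 0.86. The 61 genes had 77 other probe sets in 39 genes, and 56 of the 77 had the same sign. Among the 33 of these above the signal filter, 23 had the same sign.

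The lower genes named so far passed again in the 16-array fit without the 1 µM pair. There the differences were −0.94 for Trim35, −0.90 for Hmgb3, −0.79 for Glp1r, −1.07 for G3bp2 and −0.80 for Actb. With the actin covariate over the 18 arrays and 3 pairs none passed (adjusted p = 0.9997 for each). The differences with it were −0.38 for Map1b, −0.34 for Kif5b, −0.30 for Ralgapa1, −0.32 for Trim35, −0.55 for Hmgb3, −0.70 for G3bp2, −0.17 for Actb and −0.86 for Rgs2.

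The 4 genes higher at 22.7 mM with 16 arrays were Ttyh2, Baiap3, St6gal1 and Serpina1b. St6gal1, a Golgi enzyme that adds sialic acid to glycoproteins, was at 8.09, 8.10 and 7.97 at 22.7 mM, against 7.66, 7.14 and 7.12 at 5.5 mM. The groups did not overlap, and the difference was 0.75 ± 0.12 (adjusted p = 0.0121 with 16 arrays, 0.136 with 18). It was 0.90 when the 1 µM pair was left out, a ratio of 1.87, and 0.85 there with the covariate (adjusted p = 0.15).

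Ttyh2, a membrane protein of the tweety family, was at 10.35, 10.22 and 9.82 at 22.7 mM, against 9.32, 9.22 and 9.03 at 5.5 mM, a difference of 0.94 (adjusted p = 0.0365 with 16 arrays). Baiap3, of the Munc13 family that acts in dense-core vesicle release, was at 8.21, 8.02 and 7.86 at 22.7 mM, against 7.83, 7.00 and 6.84 at 5.5 mM (difference 0.81, adjusted p = 0.0122). Neither group of values overlapped with its counterpart, yet the untreated Baiap3 arrays held 7.86 at 22.7 mM and 8.20 at 5.5 mM. Serpina1b, one of several near-identical genes for the protease inhibitor alpha-1 antitrypsin, differed by 0.52 (adjusted p = 0.0439), and its probe set can read its paralogs. Leaving out the 1 µM pair gave 0.89 for Ttyh2 (adjusted p = 0.0395), 1.02 for Baiap3 (adjusted p = 0.000911) and 0.42 for Serpina1b (adjusted p = 0.103), which no longer passed. With the covariate over the 18 arrays the differences were 0.49 for Ttyh2, 0.94 for Baiap3 and 0.61 for Serpina1b, none called.

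The other genes with the smallest p on this side did not pass with 16 or 18 arrays. They were Inpp4a, Gm2a, Abcg1, Sephs2, Osbpl1a, Pim2 and Mrpl39, with differences of 0.41 for the kinase gene Pim2 to 0.64 for Sephs2, an enzyme of selenoprotein synthesis. When the 1 µM pair was left out, Sephs2 (0.80, adjusted p = 0.0131) and Gm2a, a lysosomal cofactor of ganglioside breakdown (0.61, adjusted p = 0.02), passed. Inpp4a, Abcg1 and Osbpl1a had smaller differences there, of 0.37 to 0.39. Another Sephs2 probe set above the filter went the other way, by −0.74 at 10 µM and −0.53 at 20 µM. A further Sephs2 probe set differed by 0.11 and 0.13 at these doses, and another of Gm2a by −0.20 and 0.15.

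Txnip differed most sharply between the pairs. It was at 7.34, 9.02 and 8.80 at 22.7 mM, against 8.76, 7.45 and 7.31 at 5.5 mM. The 10 and 20 µM arrays were separated by 1.57 and 1.49, and the arrays labelled 1 µM by −1.42. Over the 3 pairs the difference was 0.55 ± 0.42 (SE; adjusted p = 0.749 with 18 arrays). Leaving out the 1 µM pair gave 1.53 ± 0.17, a ratio of 2.89 (adjusted p = 0.000542 in the 16-array fit), and 1.81 with the covariate (adjusted p = 0.00525). The scan day fit, in which that pair has no weight, gave 1.55 (adjusted p = 0.000651). Txnip was among the genes whose values led to leaving out the 1 µM pair. Its p-values without that pair therefore depend on the choice. The untreated arrays held 8.94 at 22.7 mM and 7.87 at 5.5 mM. A dimmer Txnip probe set differed by −1.09, −0.22 and 0.53, so the probe sets disagreed in sign at 10 µM. Txnip was the only one of the 59 genes with a promoter among those called higher without the 1 µM pair whose window held the carbohydrate response element printed above, against 8 of 6081 genes tested with a promoter.

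Fam151a and Fxyd6 did not cross over but were flat at the lowest dose. Fam151a was at 7.77, 8.34 and 7.99 at 22.7 mM, against 7.74, 6.97 and 6.53 at 5.5 mM. Its 1 µM arrays were level, at a difference of 0.03, and the others differed by 1.38 and 1.46. Fxyd6, a small regulator of the sodium pump, was at 7.99, 8.45 and 8.00 at 22.7 mM, against 7.78, 7.28 and 6.67 at 5.5 mM, with differences of 0.21, 1.17 and 1.33. The ratios without the 1 µM pair were 2.67 for Fam151a (adjusted p = 0.000542) and 2.38 for Fxyd6 (adjusted p = 0.00175). With all 3 pairs their adjusted p was 0.0611 and 0.0601 with 16 arrays. Without the 1 µM pair and with the covariate, Fam151a differed by 1.23 and Fxyd6 by 1.5, and neither passed (adjusted p = 0.0557 for each). Clu, the extracellular chaperone clusterin that binds amyloid, was level at 1 µM (10.60 at 22.7 mM and 10.59 at 5.5 mM). It was at 10.99 and 10.79 at the higher doses at 22.7 mM, against 10.19 and 9.89 at 5.5 mM (0.85 without the 1 µM pair, adjusted p = 0.00142, and 0.89 with the covariate as well, adjusted p = 0.0786).

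The ChREBP target and lipogenic list held 16 genes tested. In all 3 pairs its median difference was 0.16, with 11 of 16 positive, beside 0.03 over all genes, of which 4267 of 7436 were positive. Txnip was its only call, in the 16-array fit without the 1 µM pair and in the scan day fit.

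**Figure D3:**
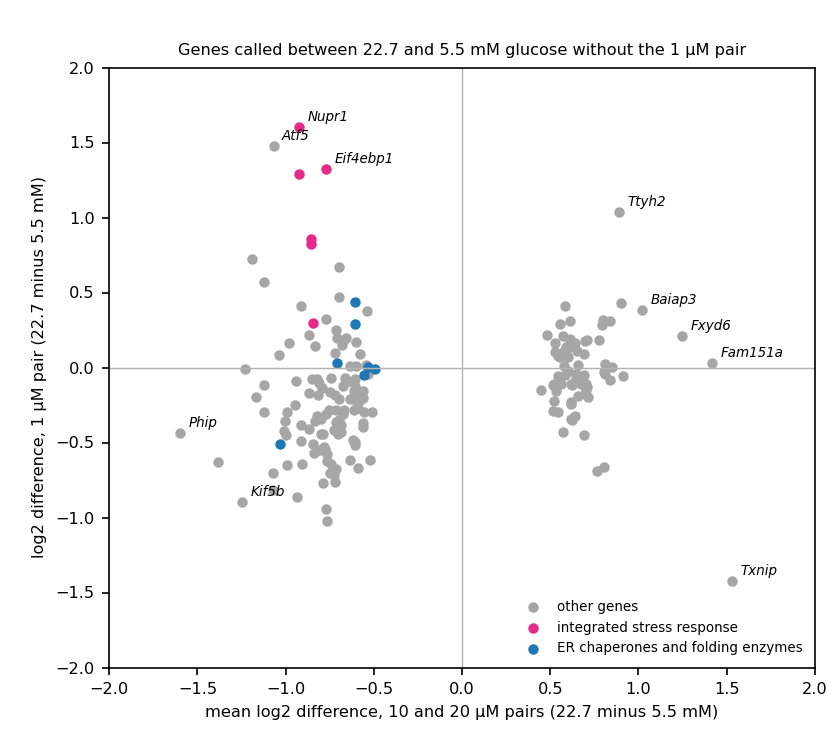
Log2 differences (22.7 minus 5.5 mM glucose) of 201 genes called without the 1 µM pair, the 2 called genes with clone-type symbols not drawn. The x axis is the mean of the 10 and 20 µM pairs and the y axis the 1 µM pair, and colours mark integrated stress response and ER chaperone genes. Txnip, Nupr1 and Atf5 lie on the opposite side of 0 in the 1 µM pair, while Kif5b, Ttyh2 and Baiap3 keep their side.

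The 203 genes called without the 1 µM pair were chosen on the 10 and 20 µM pairs, so the pairs not used for the call at 2 h can be set beside them. In the 1 µM pair, 35 of the 74 higher genes and 95 of the 129 lower genes had the same sign, where 47.3% of all genes were positive and 52.7% negative. In the untreated pair, 57 of 74 and 88 of 129 did, where 46.7% were positive and 53.3% negative. At 12 h, 70 of 74 and 118 of 129 had the same sign, where 61.3% of all genes were positive and 38.7% negative. At 24 h, 70 of 74 and 76 of 129 did, where 62.2% were positive and 37.8% negative. The later arrays share the fitted spread. With the covariate, the 5 genes called without the 1 µM pair were Selenop, Atf5, Txnip, Crp and Id1. Selenop, which carries selenium in plasma, differed by 1.65, Atf5, a stress-regulated transcription factor, by −1.50, the acute phase gene Crp by −1.44 and Id1, an inhibitor of helix-loop-helix factors, by −1.36. These were named after their values were seen.

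Genes of the integrated stress response had one sign in the pair labelled 1 µM and mostly the other sign in the remaining pairs. The median level of the 24 genes tested was 9.47, 8.85 and 8.81 at 22.7 mM, against 8.78, 9.02 and 9.10 at 5.5 mM. The untreated arrays had 8.85 at 22.7 mM and 9.67 at 5.5 mM. In the 1 µM pair 22 of 24 genes were positive, with a median difference of 0.68. At 10 µM 7 were positive, where 60.1% of all genes were, and at 20 µM 1 was, where 54% of all genes were. The medians there were −0.29 and −0.32, beside 0.07 and 0.02 over all genes. In the untreated pair 23 of 24 were negative, with a median of −0.67.

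Over all 3 pairs, with 18 or 16 arrays, no gene of this list was called, and the median was −0.07. Without the 1 µM pair, 21 of 24 were negative, where 39.9% of all genes were, and the median was −0.32. With 16 arrays 6 were then called, all lower at 22.7 mM (1.73% of all genes were): Nupr1, Slc7a3, Eif4ebp1, Trib3, Psph and Psat1. The scan day fit called 5 of them, all but Eif4ebp1. The 1 µM pair was left out after the values of Nupr1 were seen, so these calls depend in part on that choice. Nupr1 was at 9.0, 7.58 and 7.36 at 22.7 mM, against 7.40, 8.46 and 8.32 at 5.5 mM, and differed by −0.92 without the 1 µM pair (adjusted p = 0.00138). Slc7a3, a transporter of cationic amino acids, was at 8.80, 7.86 and 7.72 at 22.7 mM, against 7.51, 8.91 and 8.52 at 5.5 mM (−0.92, adjusted p = 0.00142). With the covariate as well, Nupr1 differed by −0.88 (adjusted p = 0.1) and Slc7a3 by −0.86 (adjusted p = 0.128), and neither passed. In both genes the array labelled 22.7 mM and 1 µM was among the highest 2 of the 6, and that labelled 5.5 mM and 1 µM was among the lowest 2.

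Psph and Psat1, enzymes of serine synthesis, differed by −0.86 (adjusted p = 0.00222) and −0.84 (adjusted p = 0.0035) without the 1 µM pair. Trib3, a pseudokinase that feeds back on Atf4, differed by −0.86, and Eif4ebp1, a brake on cap-dependent translation, by −0.77. Atf5, which stood outside the list, was at 10.55, 9.53 and 9.11 at 22.7 mM, against 9.07, 10.49 and 10.28 at 5.5 mM. It differed by −1.07 without the 1 µM pair (adjusted p = 0.00146), a value that depends on leaving out a pair in which it crossed over. The regulators themselves were not called in any of these fits: Atf4 differed by −0.35 (adjusted p = 0.144) and Ddit3, the death-linked factor CHOP, by −0.38 (adjusted p = 0.131). Chac1, which degrades glutathione, differed by −0.27 (adjusted p = 0.301) and Asns, asparagine synthetase, by −0.43 (adjusted p = 0.121). Both hold the amino acid response element printed above. Chac1 was at 9.34, 8.55 and 8.36 at 22.7 mM, against 8.33, 8.69 and 8.77 at 5.5 mM. Shmt2, a mitochondrial enzyme of one-carbon metabolism, differed by 1.03 at 1 µM and by −0.30 and −0.18 at the other doses.

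**Figure D4:**
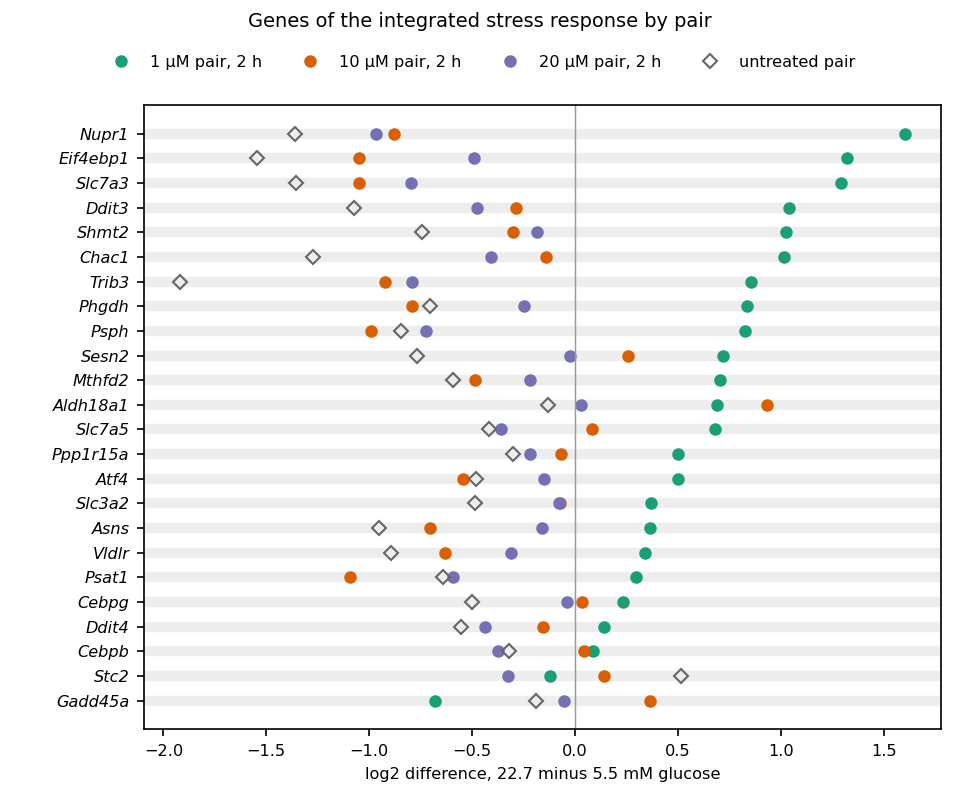
Log2 differences (22.7 minus 5.5 mM glucose, x axis) of the 24 integrated stress response genes tested, one row per gene, with a dot per amylin dose at 2 h and an open diamond for the untreated pair. Of the 24 genes, 22 lie right of 0 at 1 µM and 23 lie left of it in the untreated pair.

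ER chaperones and folding enzymes had lower signal at 22.7 mM in most genes. Of 22 genes tested, 19 had a negative difference and 10 were lower in every pair, beside 15.2% of all genes. Their median level was 10.65, 10.66 and 10.52 at 22.7 mM, against 10.57, 11.00 and 11.18 at 5.5 mM. The median difference was −0.04, −0.30 and −0.30 at 1, 10 and 20 µM and −0.29 without amylin. The untreated pair was on the same side in 18 of 22.

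Pdia3, the disulfide isomerase ERp57, was the list's only call in the 16-array fit. It was at 11.32, 11.00 and 11.18 at 22.7 mM, against 11.83, 11.99 and 12.25 at 5.5 mM, and the groups did not overlap (difference −0.86 ± 0.14, adjusted p = 0.015). It was −1.03 without the 1 µM pair and −0.69 with the covariate as well (adjusted p = 0.319), and −0.31 with the covariate over the 18 arrays. With the 1 µM pair left out, 7 of 22 were called, all lower, as 1.73% of all genes were: Pdia3, Dnajc3, Pdia6, Dnajb11, Sdf2l1, Creld2 and Fkbp2. Dnajc3, a co-chaperone that restrains the ER kinase PERK, was at 9.22, 9.0 and 9.09 at 22.7 mM, against 9.20, 9.63 and 9.89 at 5.5 mM. Its 1 µM arrays were level and the others apart (−0.71 without the 1 µM pair, adjusted p = 0.0102). Pdia6, another disulfide isomerase, was at 12.09, 11.95 and 12.11 at 22.7 mM, against 12.09, 12.41 and 12.70 at 5.5 mM (−0.53, adjusted p = 0.0182). Dnajb11, a co-chaperone of BiP, differed by −0.56, Sdf2l1, its partner, by −0.61, and Creld2 by −0.61. Hspa5 was at 11.81, 11.86 and 12.20 at 22.7 mM, against 12.27, 12.62 and 12.48 at 5.5 mM. All of its values at 22.7 mM lay below those at 5.5 mM, but it was not called (−0.50, adjusted p = 0.0801 with 16 arrays, and 0.0557 without the 1 µM pair). With the covariate Hspa5 differed by 0.02 over the 18 arrays.

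In ER-associated degradation, which returns misfolded proteins to the cytosol, 13 of 17 genes were negative with a median of −0.15. Sel1l, the adaptor of the ligase Hrd1, was at 9.09, 8.36 and 8.76 at 22.7 mM, against 9.38, 9.87 and 9.50 at 5.5 mM (−0.85 ± 0.18, adjusted p = 0.0487 with 16 arrays). It was −1.12 without the 1 µM pair and −0.52 with the covariate as well (adjusted p = 0.549), and −0.02 with the covariate over the 18 arrays. Derl3, a channel component, was called as well once the 1 µM pair was left out (−0.70, adjusted p = 0.0243). Derl3 crossed over at the lowest dose, with 8.50, 7.94 and 8.02 at 22.7 mM against 7.83, 8.62 and 8.74 at 5.5 mM. The sensors of the unfolded protein response gave no call in 8 genes, with a median of −0.04.

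Proteasome subunits had slightly lower signal at 22.7 mM in most genes. Of 31 tested, 28 were negative and 15 were lower in every pair, with a median of −0.21, beside 42.6% negative over all genes. The untreated pair had the opposite sign, at 0.11, and the 10 µM pair was nearly level at −0.05. Psmd7, of the lid of the regulatory particle, was at 7.56, 7.38 and 7.80 at 22.7 mM, against 8.58, 8.04 and 8.67 at 5.5 mM (−0.85, adjusted p = 0.0111 with 16 arrays). Psma4, of the core ring, was at 10.12, 10.09 and 10.28 at 22.7 mM, against 10.67, 10.97 and 10.95 at 5.5 mM (−0.70, adjusted p = 0.0121). Neither gene's groups overlapped. The differences without the 1 µM pair were −0.76 for Psmd7 and −0.77 for Psma4, and with the covariate over the 18 arrays −0.30 and −0.39. Psmb3, another core subunit, was called in the opposite direction without the 1 µM pair (0.57, adjusted p = 0.0243). Another Psmb3 probe set above the signal filter differed by 0.17 at 10 µM and −0.02 at 20 µM. Other probe sets of Psmd7, both below the filter, differed by 0.13 and −0.04 on average.

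**Figure D5:**
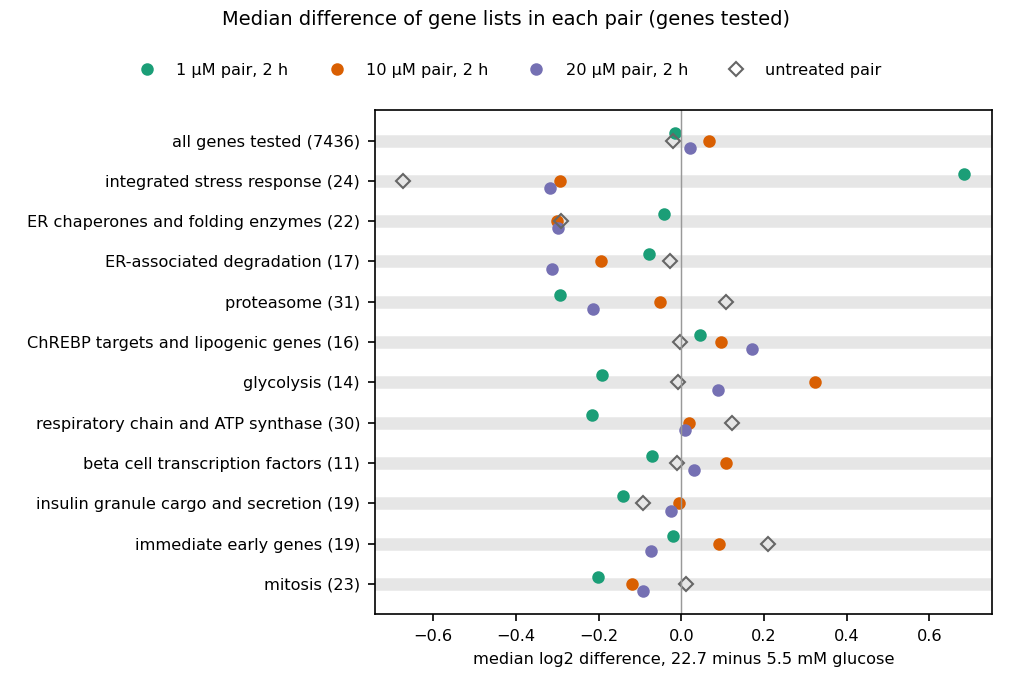
Median log2 difference (22.7 minus 5.5 mM glucose, x axis) of gene lists in each pair, with the number of genes tested in brackets, a dot per amylin dose at 2 h and an open diamond for the untreated pair. The integrated stress response lies at 0.68 at 1 µM and between −0.29 and −0.67 elsewhere, while proteasome genes lie below 0 at every dose and at 0.11 without amylin.

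Genes of beta cell identity and secretion gave small differences. Ins2 differed by −0.07 (95% confidence interval −0.22 to 0.09), Iapp, the mouse amylin gene, by −0.01 (−0.20 to 0.17) and Pdx1, a master transcription factor of beta cells, by 0.08 (−0.24 to 0.39). Iapp was at 13.78, 13.66 and 13.78 at 22.7 mM, against 13.74, 13.66 and 13.86 at 5.5 mM. None of the 3 was called in any fit named here. The median over 11 beta cell transcription factors was 0.08, and over 19 genes of granule cargo and secretion −0.05, where Glp1r was the only call in the 16-array fit, with or without the 1 µM pair. In the scan day fit the only call among these 19 was Abcc8, higher at 22.7 mM.

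Immediate early genes answer to calcium and cAMP within minutes. The 19 tested had medians of −0.02, 0.09 and −0.07 at 1, 10 and 20 µM, while Fos and Egr1 had one sign at 1 µM and the other at the higher doses. Fos was at 9.41, 9.86 and 9.66 at 22.7 mM, against 10.62, 9.37 and 9.23 at 5.5 mM. The array labelled 5.5 mM and 1 µM was the highest of the 6, and at the other doses the 22.7 mM arrays were higher by 0.50 and 0.42. The untreated pair held 10.52 at 22.7 mM and 8.79 at 5.5 mM. Egr1 had differences of −0.38, 0.46 and 0.46. Neither was called with or without the 1 µM pair (adjusted p = 0.169 and 0.0575 without it), and of the 19 genes only Id1 was in the 16-array fit without it, lower at 22.7 mM.

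Metabolic lists had medians of mixed sign. Over 14 glycolytic genes the median was −0.19, 0.32 and 0.09 at 1, 10 and 20 µM, and over 30 genes of the respiratory chain −0.22, 0.02 and 0.01, with no call in any fit named here. In the oxidative stress list, Srxn1, which repairs peroxiredoxins, was called lower with 16 arrays (−0.57, adjusted p = 0.0487). Without the 1 µM pair Gclc and Gclm, the subunits of the rate-limiting enzyme of glutathione synthesis, were lower (−0.94 and −0.61) and Mt1, a metallothionein, was higher (0.51, adjusted p = 0.0124). Mt1 was at 12.90, 13.26 and 13.05 at 22.7 mM, against 13.02, 12.59 and 12.69 at 5.5 mM. In mitosis genes, 21 of 23 were negative with a median of −0.14, beside 42.6% negative and a median of 0.03 over all genes, and none was called in any fit named here.

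The glucose difference at 2 h was set against those at 12 and 24 h. The limma contrast of the difference at 2 h minus the mean of the later ones called 0 of 7436 genes (0%), with 271 at an unadjusted p under 0.05 (3.64%) and a smallest adjusted p of 0.965. It also called 0 with 16 arrays, with 581 at an unadjusted p under 0.05. The scan day fit, without weight on the 1 µM pair, called 3, all with the lower difference at 2 h. They were Sp1, a transcription factor of GC-rich promoters (−1.30), Pja2, a ubiquitin ligase (−1.24), and G3bp2 (−1.25), each at an adjusted p of 0.0283 and named after their values were seen. The genes of smallest p whose difference at 2 h was the lower were Klf7, Yme1l1, Ccne2, Kmt2c, Acat1 and Mns1. On the other side they were Colq, Uba7, Ddit3, Lepr, Star and Nipsnap2. Ddit3 differed by 0.09 at 2 h over the 3 pairs, by −0.50 at 12 h and by −0.95 at 24 h, and its value at 2 h rested on the 1 µM pair, at 1.04.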

How the data were processed

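Values are log2 signals of 22690 probe sets on 20 arrays, made and deposited by the authors with RMA in affy 1.12.2 under R 2.4.0, per the submitters' processing notes; the settings are not given in the sources used here. Samples were grouped by the glucose, dose and time in their labels. Probe sets were named through GEO's platform annotation: 20380 had 1 gene, 691 several and 1555 none. A gene was read by its probe set of highest mean, and the lowest 40% of 12393 genes were left out, leaving 7436 (means of at least 7.08).

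limma 3.58.1 (R 4.3.3) fitted the 18 treated arrays with the 9 amylin conditions and a glucose term within each time, with empirical Bayes and an intensity trend. Adjusted p-values are Benjamini-Hochberg over 7436 genes. Because the fit has 6 residual degrees of freedom, the number of arrays limits the precision. The 16-array fit leaves out the 2 arrays without a scanner description. The scan day fit adds scan day as a block on those 16 arrays. Scripts were tested on simulated data.

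The genes named by rule were the 15 highest and 15 lowest called genes or, where fewer than 10 were called, the 10 of smallest p in each direction; up to 4 of smallest p in each list; the 6 of smallest p in each direction by time; and Ins2, Iapp, Pdx1, Txnip, Hspa5, Ddit3, Atf4, Fos and Egr1. The other genes named were chosen after their values were seen. The samples and the 29 gene lists, 23 of whose symbols were matched through synonyms, were chosen with earlier results of these data known. Ins1 was not analysed.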

Additional observations from a re-analysis of the deposited data

Results flagged for a closer look

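For 3 genes every dose pair at 2 h had one sign and all 6 later pairs the other. All 3 were named above by small p in the contrast with later times, so opposite signs follow in part from that choice. The share of such genes among all genes tested is not given here. Klf7, a Krüppel-like transcription factor, differed by −0.26, −0.47 and −0.59 between 22.7 and 5.5 mM glucose at 2 h, and by means of 0.24 at 12 h and 0.28 at 24 h. Its difference at 2 h minus the later mean was −0.70. Yme1l1, a protease of the inner mitochondrial membrane, differed by −0.65, −0.17 and −0.54 at 2 h, with later means of 0.17 and 0.42, which gives −0.75. Colq, the collagen tail of acetylcholinesterase, differed by 0.27, 0.26 and 0.38 at 2 h, with later means of −0.07 and −0.26, which gives 0.47. The interaction test in limma did not call any of the 3 (adjusted p = 0.965 for each). Other probe sets of Klf7 differed at 2 h by −0.24, 0.15 and 0.04, and both others of Yme1l1 by 0.23, opposite to the one reported.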

How the results depend on the processing

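Of 1300 values of 83 genes under the alternatives, 1134 kept their direction and side of the threshold, 124 passed it in addition, 0 lost it (none passed over the 18 arrays) and 42 in 23 genes changed sign. The count of called genes, 0 over 18 arrays, became 61 with 16 arrays, 34 and 49 with the 6 arrays alone (the second without dose matching), 1 without dose matching and 141 with scan day as a block. The contrast with later times became 3 with scan day as a block. The 16-array count of 61 became 30 with the filter at the 60th percentile, 127 with the mean of all probe sets, 141 with scan day as a block and 0 with the actin covariate. Leaving out 1 pair gave 0 to 203, and leaving out the 1 µM pair gave 5 with the covariate, 191 with centred arrays and 253 with quantile normalization. The share higher among the calls was 35.5% with scan day as a block, against 6.56% in the 16-array fit. It was 36.5% in the 16-array fit without the 1 µM pair, which has no scan day term. Within the one pair scanned on 1 day, that of 20 µM, values stand in the report. Scan day as a block gives the 1 µM pair a weight of 0 by construction, and the cause of the shifts was not tested. With the covariate, signs changed in Phip (0.19), Nupr1 (0.0616), Eif4ebp1 (0.16), Slc7a3 (0.0520), Trib3 (0.25), Psat1 (0.0577), Atf4 (0.10), Asns (0.37), Hspa5 (0.0211), Iapp (0.0344), Pdx1 (−0.0691), Fos (0.26), Gclm (0.0358), Ccne2 (0.0344) and Sp1 (0.0126). With the mean of all probe sets, Actb became 0.11, Eif4ebp1 0.0360, Pdx1 −0.0606 and Yme1l1 0.0021. With scan day as a block, Ddit3 became −0.38, Chac1 −0.26, Shmt2 −0.22 and Fos 0.53. Leaving out each pair in turn gave −1.07 to 0.26 for Atf5, −0.92 to 0.36 for Nupr1, −0.77 to 0.42 for Eif4ebp1, −0.92 to 0.25 for Slc7a3, −0.86 to 0.0321 for Trib3 and −0.86 to 0.0495 for Psph. It gave −0.38 to 0.37 for Ddit3, −0.35 to 0.18 for Atf4, −0.27 to 0.44 for Chac1, −0.43 to 0.10 for Asns, −0.24 to 0.42 for Shmt2, −0.61 to 0.0601 for Creld2, −0.0394 to 0.0166 for Iapp, −0.0621 to 0.17 for Pdx1 and −0.39 to 0.46 for Fos. Signal near background limits the dim genes.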
